A study of Mus musculus with 8 samples.

Results

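The receptors of the EGF receptor family and their ligands were followed in sorted cheek epithelium of mice at 8 weeks and 1 week of age. The members were the 9 genes Egfr, Erbb2, Erbb3, Areg, Ereg, Hbegf, Tgfa, Btc and Epgn, taken by gene symbol from the deposited table. A row was found for 8 of them among the 23355 genes of the table, and Ereg was not analysed here. RNA came from 4 mice of 8 weeks and 4 mice of 1 week. The animals of both ages were C57BL/6, wild type, untreated and free of specific pathogens. In both, buccal mucosa was treated with dispase II to free the epithelium, the cells were sorted by flow cytometry, and total RNA was made into stranded libraries with ribosomal RNA depletion (SMARTer Pico kit). Sex, the gate of the sort and any batch are not given in the sources used here. Each library is 1 animal, so the tests set the difference between the ages against the spread between these animals and their preparations.

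Receptors of this family are tyrosine kinases of the cell surface that pair when a ligand binds and then drive the RAS-ERK and PI3K cascades. Their ligands are made as membrane-anchored precursors and are cut free by metalloproteases such as ADAM17. In stratified epithelium the pathway is known for its part in keratinocyte division, migration and the closing of wounds. Egfr encodes the receptor that binds all ligands among the members, Erbb2 a partner with no known ligand of its own, and Erbb3 a receptor of neuregulins whose own kinase is weak.

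The ligands share an EGF module, a stretch held by 3 disulphide bonds between 6 cysteines, which is the part that binds the receptor. The coding sequence of the module is shown for Tgfa, Btc, Areg and Epgn to let their likeness be read directly, and those of Hbegf and Ereg are not shown here. Each was read from the GENCODE M21 transcripts of GRCm38, 108 bases from the codon of the first cysteine to that of the last, with the 6 cysteine codons in capitals.
Tgfa: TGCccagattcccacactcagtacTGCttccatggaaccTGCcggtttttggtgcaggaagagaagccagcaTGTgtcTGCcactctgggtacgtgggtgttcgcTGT
Btc: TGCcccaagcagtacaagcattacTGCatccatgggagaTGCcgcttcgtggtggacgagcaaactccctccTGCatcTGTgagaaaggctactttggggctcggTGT
Areg: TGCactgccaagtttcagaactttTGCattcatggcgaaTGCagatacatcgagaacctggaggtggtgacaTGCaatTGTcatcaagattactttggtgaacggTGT
Epgn: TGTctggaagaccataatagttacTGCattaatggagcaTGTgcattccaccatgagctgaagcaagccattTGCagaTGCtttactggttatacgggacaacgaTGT
The spacing of the 6 codons was the same in these 4. Among them identity over the 108 bases was highest between Tgfa and Btc (62.0%) and next between Areg and Btc (57.4%), and lowest between Areg and Tgfa and between Btc and Epgn (47.2% each). Epgn, Ereg, Areg and Btc lie within 376 kb of chromosome 5 (GRCm38, 91027464 to 91402994), where GENCODE M21 lists no other protein-coding gene.

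The stretch before the start of transcription was read for the receptors that passed the test below, Egfr and Erbb2, and for Areg, a scarce ligand, to set their layouts side by side. The sequences are the 250 bases before the RefSeq start on the plus strand of GRCm38.p6, at chr11:16751953-16752202 for Egfr, chr11:98412234-98412483 for Erbb2 and chr5:91139349-91139598 for Areg. Capitals mark motifs, each searched on both strands, and no marked match overlapped another. The GC box was searched with the letters GGGCGG. The box named for its letters CCAAT was the next motif. For the TATA element the letters were TATAAA. The cAMP response element was spelled TGACGTCA.
Egfr: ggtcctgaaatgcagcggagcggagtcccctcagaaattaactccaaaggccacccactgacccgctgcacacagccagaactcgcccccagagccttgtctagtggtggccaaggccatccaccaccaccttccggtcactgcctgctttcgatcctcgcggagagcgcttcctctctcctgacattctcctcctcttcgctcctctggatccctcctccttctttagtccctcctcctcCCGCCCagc
Erbb2: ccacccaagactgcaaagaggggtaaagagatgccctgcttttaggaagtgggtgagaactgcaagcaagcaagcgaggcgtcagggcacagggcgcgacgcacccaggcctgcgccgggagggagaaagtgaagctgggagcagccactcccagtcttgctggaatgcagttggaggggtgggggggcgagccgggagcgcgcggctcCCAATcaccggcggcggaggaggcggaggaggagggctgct
Areg: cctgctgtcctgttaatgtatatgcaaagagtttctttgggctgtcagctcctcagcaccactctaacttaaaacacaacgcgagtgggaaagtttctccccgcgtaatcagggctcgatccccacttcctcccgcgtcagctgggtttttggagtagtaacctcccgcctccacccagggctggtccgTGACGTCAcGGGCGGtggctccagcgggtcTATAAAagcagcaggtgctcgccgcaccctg
Egfr held a GC box on the minus strand 9 to 4 bases before the start, and Erbb2 a CCAAT box 41 to 37 bases before it. Areg held a cAMP response element, a GC box and a TATA box, at 61 to 54, 52 to 47 and 31 to 26 bases before the start. Of 32851 windows in the RefSeq table, a share of 32.7% held a GC box, 33.8% a CCAAT box, 12.4% a TATA box and 1.55% the cAMP response element. An AP-1 site, for which the letters TGANTCA were searched, was in 6.75% of the windows and in none of these 3. G and C made up 60.8%, 66% and 57.2% of the Egfr, Erbb2 and Areg windows, against a median of 52.4% over all windows. The table had an entry for 6 of the 9 members, and a match of letters is a description only.

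The libraries held 13037171 to 16807773 counts at 8 weeks and 11747783 to 13169992 at 1 week. Levels are in CPM, a gene's counts divided by the size of its library after edgeR's TMM scaling between libraries. Keratinocyte markers were by far the most abundant of 8 marker lists. The summed level of 6 basal markers was 16150 to 22240 CPM at 8 weeks and 22230 to 25440 CPM at 1 week. Among these 6, 0 were called. Krt5 and Krt14 made up most of the sum, with log2 fold changes (8 weeks over 1 week) of -0.395 and -0.487. Those of Trp63, Itga6, Itgb4 and Col17a1 were positive, at 0.07, 0.24, 0.33 and 0.214. The 6 suprabasal markers summed to 13190 to 16220 CPM at 8 weeks and 12940 to 15790 CPM at 1 week. Of these 6 suprabasal markers 1 was called higher and 1 lower. Ppl, the gene of periplakin, was 326 ± 63.0 CPM at 8 weeks and 169 ± 23.2 CPM at 1 week (adjusted p = 0.00745), and the keratin gene Krt6a 1035 ± 244 CPM at 8 weeks and 2050 ± 203 CPM at 1 week (adjusted p = 0.0107; SD, n = 4 each). The 4 leukocyte markers with a value summed to at most 4.72 CPM and the 4 of endothelium to at most 7.69 CPM in any library. The 5 fibroblast markers with a value summed to 399.5 to 775.5 CPM at 8 weeks and 923 to 1161 CPM at 1 week, nearly all of it Dcn. Dcn stood at 542 CPM at 8 weeks and 989.8 CPM at 1 week and was the 1 marker of this list called, lower (adjusted p = 0.0231), while the defining collagen gene Col1a1 stood at 0.496 CPM at 8 weeks and 0.421 CPM at 1 week. The 4 haemoglobin genes summed to 21.8 to 68.7 CPM at 8 weeks and 3.38 to 12.8 CPM at 1 week, with 3 called higher. The part of any of these in the results below was not tested. In such bulk RNA, fewer cells of a type and less RNA per cell cannot be told apart.

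Egfr and Erbb2 RNA were higher at 8 weeks than at 1 week by the main test. Erbb3 stood higher in every library of 8 weeks without passing the test, and no ligand passed. Neither Egfr nor Erbb2 passed in every fit with 1 library left out. Egfr also did not pass with a correction for transcript length and GC content. The comparison asks how transcripts of the oral epithelium differ between grown and young mice. By edgeR's quasi-likelihood test over all 14533 genes that passed a low-count filter, 952 genes (6.55%) had a Benjamini-Hochberg adjusted p under 0.05, and these are termed called. Of the tested genes 3.33% were called higher at 8 weeks and 3.22% lower, that is 484 and 468 genes, against 588 and 255 with library size alone in place of TMM. Among the members 6 passed the filter, of which 2 were called higher and 0 lower. At an unadjusted p under 0.05 edgeR had 3 members higher and 0 lower. Such a p was common, as the pathway gene Egf, at an edgeR p of 0.0483, ranked 3968 of the 14533 tested genes. DESeq2 called 3 members higher and 0 lower, and limma-voom 2 higher and 0 lower. Over all genes DESeq2 called 1992 and limma-voom 1632. For 3 of the 6 members tested the libraries of 8 weeks were all above those of 1 week, which held for 7.69% of all tested genes. Areg and Epgn were too scarce for the filter.

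**Figure D1:**
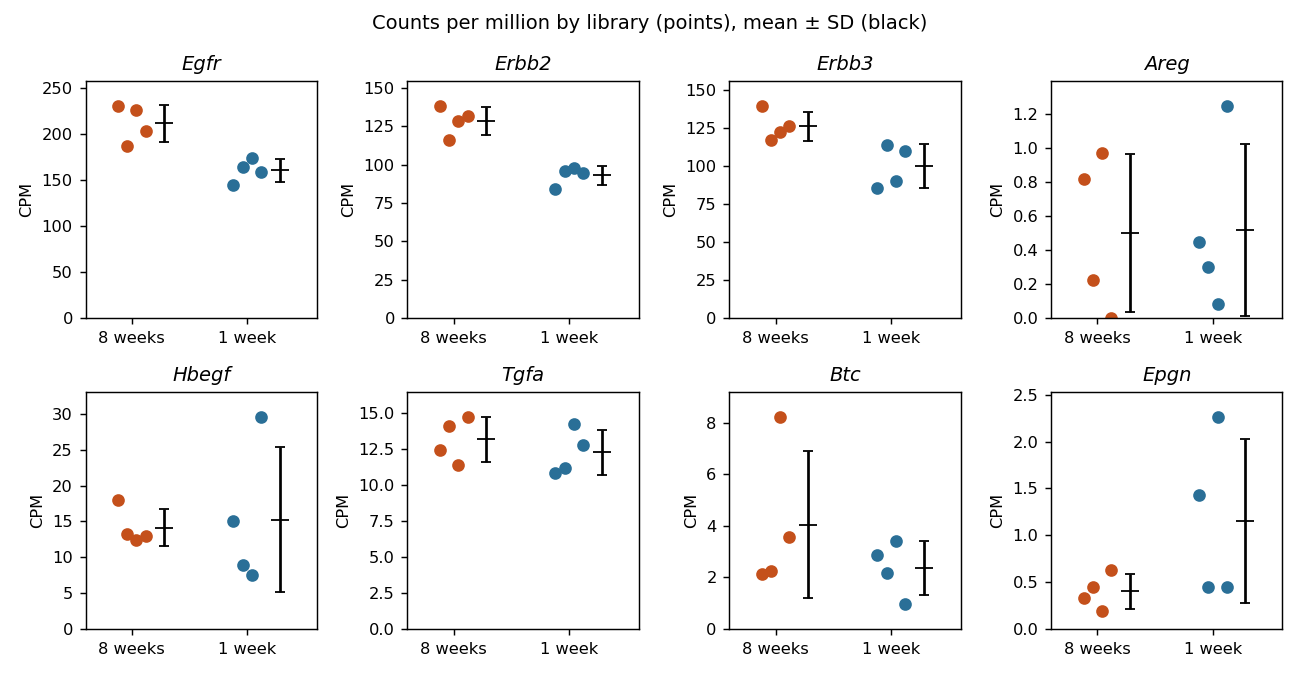
Level of each member in CPM (linear axes from 0, 1 panel per gene), with 4 libraries of 8 weeks left and 4 libraries of 1 week right in each panel; each point is 1 mouse and the bar the mean with its SD. The ages do not overlap for Egfr, Erbb2 and Erbb3 and overlap for the ligands, with 1 week 4 standing high for Hbegf at 29.6 CPM.

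Egfr (ENSMUSG00000020122; GRCm38 chromosome 11, 16752203 to 16918158, plus strand) stood at 229.6, 187, 226 and 203 CPM in the libraries 8 weeks 1 to 8 weeks 4, against 144, 164, 173 and 159 CPM in 1 week 1 to 1 week 4. The lowest library of 8 weeks was above the highest of 1 week. Its mean was 211 ± 20.2 CPM at 8 weeks and 160.2 ± 12.3 CPM at 1 week (SD, n = 4 each). The log2 fold change of 0.40 had an SE of 0.10 and an adjusted p of 0.0393, and amounts to 1.32-fold. The call was lost when 8 weeks 1 (0.118), 8 weeks 3 (0.122), 8 weeks 4 (0.0638), 1 week 1 (0.12), 1 week 2 (0.0663) or 1 week 4 (0.0634) was left out, while the log2 fold change ran from 0.36 to 0.45 over the 8 leave-outs. With a correction of each library for transcript length and GC content it was 0.12 (SE 0.07, adjusted p = 0.343). With no filter on low counts the adjusted p was 0.0515. The authors' deposited table gave 0.40 and an adjusted p of 0.00495.

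Erbb2 (ENSMUSG00000062312; chromosome 11, 98412470 to 98437716, plus strand) stood at 138, 116, 128 and 132 CPM in the 4 libraries of 8 weeks, against 83.8, 95.7, 97.9 and 94.8 CPM in those of 1 week. Every library of 8 weeks was above every library of 1 week. The means were 128.5 ± 9.24 CPM at 8 weeks and 93.1 ± 6.29 CPM at 1 week (SD, n = 4 each). On the log2 scale the change was 0.47, with an SE of 0.09 and an adjusted p of 0.0193, or 1.38-fold. Without 8 weeks 1, 8 weeks 3 or 1 week 1 the adjusted p was 0.0653, 0.06 and 0.0646. With the length and GC correction Erbb2 was still called, at 0.32 (SE 0.07, adjusted p = 0.0408), and the authors' deposited table gave 0.47 (adjusted p = 0.00035).

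Erbb3 (ENSMUSG00000018166; chromosome 10, 128567523 to 128589652, minus strand) stood at 139, 117, 122 and 126 CPM at 8 weeks, against 85.35, 114, 90.1 and 110.0 CPM at 1 week. The ages did not overlap, but 2 of the 1 week libraries came close to the lowest of 8 weeks. Means were 126 ± 9.47 CPM at 8 weeks and 99.9 ± 14.2 CPM at 1 week (SD, n = 4 each), with a log2 fold change of 0.34 (SE 0.11) that was not called by edgeR (adjusted p = 0.0787). DESeq2 gave an adjusted p of 0.0453 on the same counts, the authors' deposited table gave 0.0663, and the length and GC correction 0.283 at a log2 fold change of 0.17.

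The receptor genes are long, and length moved with the comparison. When the protein-coding genes under test were ranked by their longest transcript and cut into 5 equal classes, Egfr and Erbb3 (10208 and 6016 bp) fell in the longest class. There the median log2 fold change was 0.21 and 12.3% of genes were called higher. Erbb2 (5012 bp) fell in the next class, with Tgfa and Btc, where the median was 0.06 and 3.1% were called higher. Hbegf (2890 bp) fell in a class with a median of -0.11. Over all tested genes the median log2 fold change was -0.002, and 49.8% of the values were positive. The antisense gene Egfros lies over Egfr (221 counts over the 8 libraries) and the end of Mien1 over that of Erbb2 (2054 counts), and the strand setting of the counting is not given in the sources used here. The part of these neighbours in the receptor counts was not tested.

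**Figure D2:**
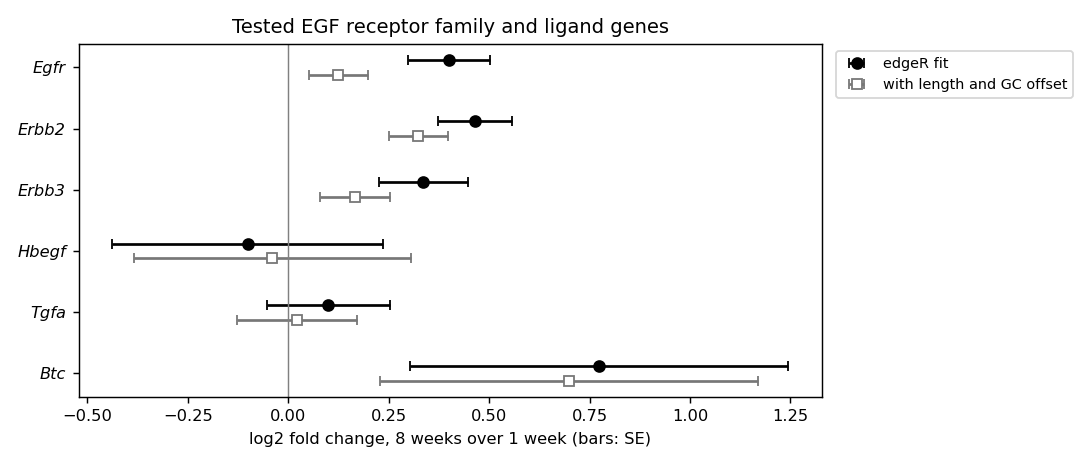
Log2 fold change (8 weeks over 1 week) of the 6 tested members with its SE as bars; filled circles are the edgeR fit and open squares the same fit with an offset for transcript length and GC content. The offset takes Egfr to 0.12 from 0.40 and leaves Erbb2 at 0.32, while Btc and Hbegf have the widest bars.

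Genes with the pattern most like that of a called receptor were found by the root mean square difference of centred log2 CPM over the 8 libraries, among 10456 genes of at least 5 CPM. For Egfr these were Son (0.037), which encodes a splicing cofactor, Myo5a (0.038), a myosin motor gene, and the zinc finger gene Zfp692 (0.04). Erbb2 ranked 30 in that order, at 0.063, and Erbb3 781. For Erbb2 they were the zinc finger gene Zfp512 (0.035), Numa1 (0.04), which encodes a protein of the mitotic spindle pole, and Tshz1 (0.041), a transcription factor gene. Egfr ranked 11 for Erbb2 and Erbb3 ranked 344. These ranks are a description, and the libraries behind them are the same as in the test.

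Of the ligands, Hbegf and Tgfa were the best measured, Btc was low, and Areg and Epgn were close to the detection limit. Hbegf encodes heparin-binding EGF-like growth factor (ENSMUSG00000024486; chromosome 18, 36504927 to 36515805, minus strand). It stood at 17.98, 13.2, 12.5 and 12.9 CPM at 8 weeks, against 15.1, 8.89, 7.505 and 29.6 CPM at 1 week. The 1 week libraries lay on both sides of those of 8 weeks, and 1 week 4 alone stood above all of them. The means were 14.2 ± 2.57 CPM at 8 weeks and 15.3 ± 10.1 CPM at 1 week (SD, n = 4 each), and the log2 fold change was -0.10 (SE 0.34, adjusted p = 0.869). Without 1 week 4 the log2 fold change turned to 0.44 (adjusted p = 0.248), and it was also positive with library size alone (0.02) and with limma-voom, which here weights each library by its quality (0.21). The SD was 18.2% of the mean at 8 weeks and 66.1% at 1 week, and at 1 week the highest library stood 3.94 times above the lowest.

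Tgfa encodes transforming growth factor alpha (ENSMUSG00000029999; chromosome 6, 86195223 to 86275719, plus strand). It stood at 12.5, 14.1, 11.4 and 14.7 CPM at 8 weeks, against 10.8, 11.2, 14.3 and 12.8 CPM at 1 week. The ages overlapped throughout. The means of 13.2 ± 1.54 CPM at 8 weeks and 12.3 ± 1.59 CPM at 1 week (SD, n = 4 each) differed by 0.10 on the log2 scale (SE 0.15, adjusted p = 0.702). Of the ligands it varied least between animals, with an SD of 11.7% of the mean at 8 weeks and 12.9% at 1 week.

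Btc encodes betacellulin, which binds both Egfr and the related receptor Erbb4 (ENSMUSG00000082361; chromosome 5, 91357261 to 91402994, minus strand). It stood at 2.125, 2.245, 8.21 and 3.58 CPM at 8 weeks, against 2.86, 2.18, 3.39 and 0.979 CPM at 1 week. 8 weeks 3 was well above the other libraries, and the ages overlapped. The log2 fold change was 0.77 (SE 0.47, adjusted p = 0.299) over all libraries and 0.17 without 8 weeks 3.

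Areg and Epgn were not tested for want of counts. Areg, the gene of amphiregulin (ENSMUSG00000029378; chromosome 5, 91139599 to 91148432, plus strand), had 15, 3, 15 and 0 counts at 8 weeks, against 5, 4, 1 and 14 counts at 1 week. A count of 0 in 8 weeks 4 allows up to 3 counts, or 0.2105 CPM, and this covers counting error only. Its level was 0.503 ± 0.464 CPM at 8 weeks and 0.519 ± 0.508 CPM at 1 week (exact two-sided permutation test, p = 1.0). Epgn, the gene of epigen (ENSMUSG00000035020; chromosome 5, 91027464 to 91035215, plus strand), had 6, 6, 3 and 9 counts at 8 weeks, against 16, 6, 28 and 5 counts at 1 week. Here 2 of the 1 week libraries stood above all of 8 weeks and the others within them. The means were 0.4004 ± 0.186 CPM at 8 weeks and 1.15 ± 0.875 CPM at 1 week (exact two-sided permutation test, p = 0.1714), a test whose p cannot go below 0.0286 at 4 against 4. The authors' deposited table gave a log2 fold change of -1.52 for Epgn, with a p of 0.0288 and an adjusted p of 0.182. Neither ligand passed a test here, and the low counts limit what these tests can show.

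Levels of different genes were compared per length, as CPM per kilobase of merged exons. At 8 weeks the order was Erbb2 (24.7 ± 1.77), Erbb3 (20.95 ± 1.57), Egfr (18.7 ± 1.78), Hbegf (2.93 ± 0.532), Tgfa (2.03 ± 0.237), Btc (0.894 ± 0.632), Areg (0.414 ± 0.382) and Epgn (0.222 ± 0.103). Libraries did not overlap between Egfr and Hbegf or between Hbegf and Tgfa, and all other neighbours in this order overlapped. At 1 week it was Erbb2 (17.9 ± 1.21), Erbb3 (16.6 ± 2.37), Egfr (14.1 ± 1.09), Hbegf (3.16 ± 2.09), Tgfa (1.89 ± 0.244), Epgn (0.635 ± 0.484), Btc (0.521 ± 0.23) and Areg (0.427 ± 0.418). There the libraries did not overlap between Egfr and Hbegf or between Tgfa and Epgn. The ligand RNAs were thus far scarcer per length than the receptor RNAs at both ages.

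The 3 receptors summed to 64.3 ± 4.79 CPM per kilobase at 8 weeks and 48.6 ± 3.91 at 1 week (SD, n = 4 each). In that sum Erbb2 made up 38.4 ± 0.696% at 8 weeks and 36.8 ± 1.29% at 1 week, Erbb3 32.6 ± 0.934% and 34.1 ± 2.85%, and Egfr 29.0 ± 1.24% and 29.1 ± 1.59%. These proportions overlapped between the ages. The 5 ligands summed to 6.97, 5.85, 7.05 and 6.08 CPM per kilobase at 8 weeks, against 6.59, 4.55, 5.82 and 9.58 at 1 week. 1 week 4 had the highest sum of all libraries and 1 week 2 the lowest. The ratio of the receptor sum to the ligand sum was 9.2 to 10.55 in the libraries of 8 weeks and 5.27 to 11.4 in those of 1 week.

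**Figure D3:**
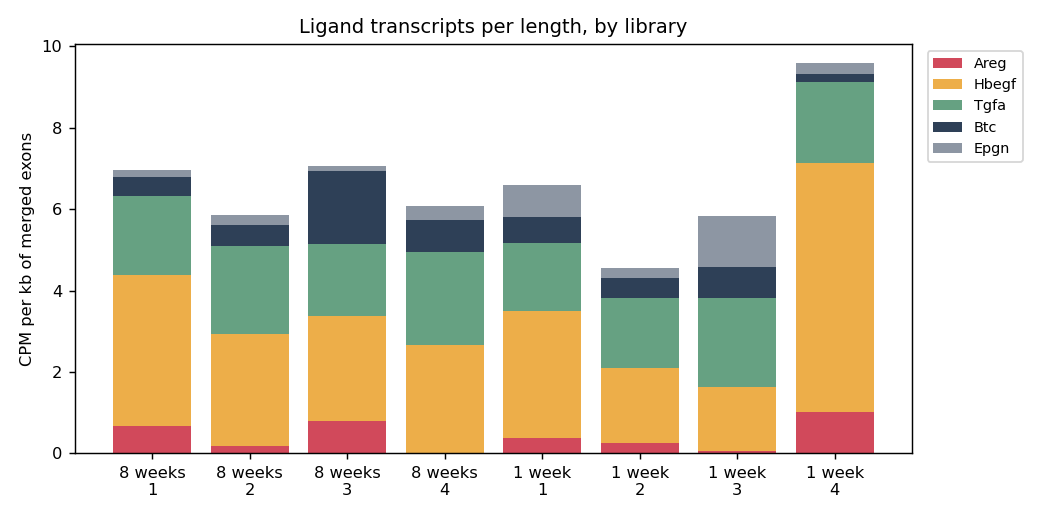
Stacked level of the 5 ligands in CPM per kilobase of merged exons (linear axis from 0), 1 bar per library, 8 weeks left and 1 week right. Hbegf and Tgfa make up most of each bar, Btc takes its widest share in 8 weeks 3 (25.7%) and Epgn in 1 week 3 (21.5%), and the bar of 1 week 4 is the tallest at 9.58.

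Hbegf was 45.2 ± 6.97% of the summed ligand level at 8 weeks and 44.6 ± 15.5% at 1 week, and Tgfa 31.8 ± 6.49% at 8 weeks and 30.4 ± 8.84% at 1 week (SD, n = 4 each). Hbegf ran from 36.6% to 53.4% at 8 weeks and from 26.7% (1 week 3) to 63.8% (1 week 4) at 1 week. Btc was 13.5 ± 8.58% at 8 weeks and 8.85 ± 4.6% at 1 week, Areg 6.03 ± 5.34% and 5.72 ± 3.91%, and Epgn 3.53 ± 1.86% and 10.4 ± 8.38%. In none of the 5 did the ages separate.

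Other genes of the pathway were followed in 6 lists with 97 genes, of which 92 were tested. Of these 92, 3 were called higher and 0 lower (3.26% called, against 6.55% of all genes). The genes called were Nrg2, Cbl and Gab1, and none of these calls held with the length and GC correction. The lists hold the other receptor and ligand genes of the family, the proteases that shed ligands, brakes on the receptors, the cascade below them, their endocytosis, and transcripts that ERK signalling induces.

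**Figure D4:**
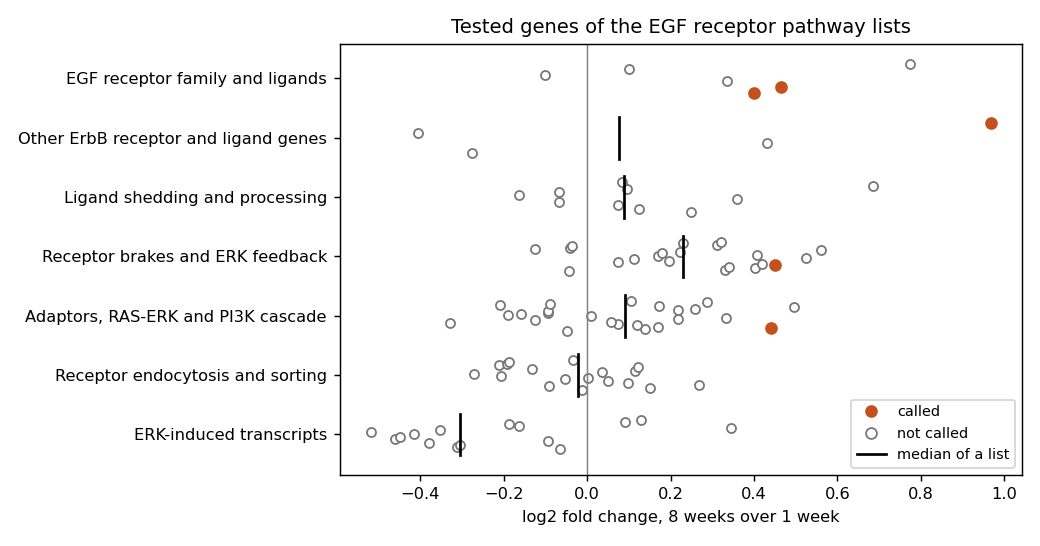
Log2 fold change (8 weeks over 1 week) of each tested member and of each tested gene of the 6 pathway lists; filled points are called at an adjusted p under 0.05, and the short line is the median of a list. Medians run from -0.30 for the ERK-induced transcripts to 0.23 for the receptor brakes, and 3 list genes are called.

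Among the other receptor and ligand genes 1 of 4 tested was called. Nrg2, a neuregulin gene whose product binds Erbb3 and Erbb4, stood at 11.9, 8.98, 14.6 and 9.97 CPM at 8 weeks, against 4.29, 4.82, 4.84 and 9.35 CPM at 1 week. 1 week 4 stood within the range of 8 weeks and the other 1 week libraries below it. The log2 fold change was 0.97 (SE 0.26, adjusted p = 0.0441), and with the length and GC correction 0.94 (adjusted p = 0.0805). The call was lost without 8 weeks 1 (0.121), 8 weeks 3 (0.137), 8 weeks 4 (0.064), 1 week 1 (0.128), 1 week 2 (0.0887) or 1 week 3 (0.0785). Nrg1, the neuregulin gene known from nerve and skin, was 16.8 ± 2.24 CPM at 8 weeks and 22.3 ± 3.83 CPM at 1 week (log2 fold change -0.40, adjusted p = 0.0996, not called). Egf, the founding ligand of the family, was 7.09 ± 0.849 CPM at 8 weeks and 5.26 ± 0.627 CPM at 1 week (0.43, adjusted p = 0.177, not called). Erbb4, the remaining receptor, was scarce, at 1.05 CPM at 8 weeks and 1.25 CPM at 1 week (adjusted p = 0.739). Nrg3 had 49 counts in all at 8 weeks and 38 at 1 week, and Nrg4 12 and 6, below the filter. Cells of the Schwann line also use Erbb3. Of their markers Mbp stood at 48.6 CPM at 8 weeks and 42.4 CPM at 1 week (adjusted p = 0.302), and the defining marker Sox10 had 3 counts in all at 8 weeks and 8 at 1 week. Their part in the Erbb3 and Nrg2 values was not tested.

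Of 10 tested genes of ligand shedding edgeR called 0. At an unadjusted p under 0.05 it had 3 higher and 0 lower, and DESeq2 and limma-voom called 0. The median log2 fold change was 0.09. Adam17, the main sheddase of several of these ligands, was 72.6 ± 7.63 CPM at 8 weeks and 61.0 ± 5.54 CPM at 1 week (log2 fold change 0.25, adjusted p = 0.151). Rhbdf1, an inactive rhomboid gene whose product carries ADAM17 to the cell surface, had a log2 fold change of 0.36 (adjusted p = 0.0787), and Timp3, an inhibitor of ADAM17, one of 0.68 (adjusted p = 0.151).

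Of 21 tested brakes 1 was called higher and 0 lower, 17 had a positive log2 fold change, and the median was 0.23. Positive values made up 49.8% of all tested genes, and the median in the class of longest transcripts was 0.21. What transcript length adds to the median of the brakes was not tested. Cbl, a ubiquitin ligase that marks active Egfr for degradation, stood at 158.9, 108, 144 and 125 CPM at 8 weeks, against 87.05, 99.7, 110.2 and 95.7 CPM at 1 week. 8 weeks 2 stood within the range of 1 week. The log2 fold change was 0.45 (SE 0.12, adjusted p = 0.0463) and 0.14 (adjusted p = 0.344) with the length and GC correction. The call was lost without 8 weeks 1 (0.145), 8 weeks 3 (0.133), 8 weeks 4 (0.068), 1 week 1 (0.136), 1 week 2 (0.0799) or 1 week 4 (0.0738). Lrig2 and Lrig3, genes of transmembrane proteins related to the receptor inhibitor Lrig1, did not pass. The log2 fold change was 0.40 for Lrig2 (adjusted p = 0.0701) and 0.34 for Lrig3 (adjusted p = 0.0736), and for both the ages did not overlap. DESeq2 called 4 genes of this list and limma-voom 3, each higher at 8 weeks, and 0 were called with the length and GC correction. Over all genes the counts called higher were 983 by DESeq2, 787 by limma-voom and 173 with that correction.

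Of 24 genes of adaptors and of the RAS-ERK and PI3K cascade 1 was called higher and 0 lower, with a median of 0.09. Gab1, a docking protein that links receptors to PI3K, stood at 41.1, 33.9, 42.0 and 35.2 CPM at 8 weeks, against 26.75, 28.9, 27.9 and 28.7 CPM at 1 week. Every library of 8 weeks was above those of 1 week. The log2 fold change was 0.44 (SE 0.10, adjusted p = 0.033), and with the length and GC correction 0.32 (adjusted p = 0.071). The call held without 8 weeks 2 or 1 week 4 and was lost without any other library, namely 8 weeks 1 (0.103), 8 weeks 3 (0.107), 8 weeks 4 (0.0501), 1 week 1 (0.101), 1 week 2 (0.0538) or 1 week 3 (0.0511). Pik3r1, which encodes a regulatory subunit of PI3K, missed the threshold at 0.49 (adjusted p = 0.0575), and so did Braf, which encodes a kinase above ERK, at 0.33 (adjusted p = 0.0912). In the authors' deposited table Pik3r1 had an adjusted p of 0.0252.

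Of 18 genes of receptor endocytosis and sorting edgeR called 0, and DESeq2 and limma-voom called 0. At an unadjusted p under 0.05 edgeR had 1 higher and 1 lower, and such a p was common over all tested genes. The median was -0.02, and the values ran from -0.27 to 0.27. Those with the smallest p were Epn2 (epsin 2, an endocytic adaptor) at 0.27, Rab11a (a GTPase of recycling endosomes) at -0.27 and Tsg101 (a part of the sorting complex to the lysosome) at -0.21, with adjusted p of 0.136, 0.147 and 0.197.

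Of 15 transcripts that ERK signalling is known to induce edgeR called 0, with 0 higher and 3 lower at an unadjusted p under 0.05 and 0 called by DESeq2 or limma-voom. The median log2 fold change was -0.30, with 3 of 15 values positive. Over all tested genes the median was -0.002 with 49.8% of values positive, and in the class of shortest transcripts it was -0.25. The part of transcript length in the median of this list was not tested. Ier2, an immediate early gene, had -0.46 (adjusted p = 0.0917), and the ETS transcription factor genes Etv5 and Etv4 had -0.52 (adjusted p = 0.171) and -0.41 (adjusted p = 0.177). When 1 week 4 was left out, Etv5 was called lower (-0.73, adjusted p = 0.0296) and Klf6, a zinc finger transcription factor gene, higher (0.45, adjusted p = 0.0367), against 0.13 for Klf6 with all libraries (adjusted p = 0.699).

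The library 1 week 4 stood apart for many of these transcripts. It had the highest level of all 8 libraries for 9 of the 15, and of the 8 members for Hbegf and Areg. Fos, an AP-1 gene of the immediate early response, stood at 214 to 324 CPM in the libraries of 8 weeks, against 685 CPM in 1 week 4 and 148 to 281 CPM in the other libraries of 1 week. Egr1, another immediate early gene, stood at 198 to 242 CPM in the libraries of 8 weeks, against 412 CPM in 1 week 4 and 101 to 251 CPM in the other libraries of 1 week. Etv5 was low in this library, with 20.2 to 33.8 CPM at 8 weeks, against 21.6 CPM in 1 week 4 and 44.5 to 56.5 CPM in the other libraries of 1 week. The part of this library's state in the Hbegf values was not tested beyond leaving it out.

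**Figure D5:**
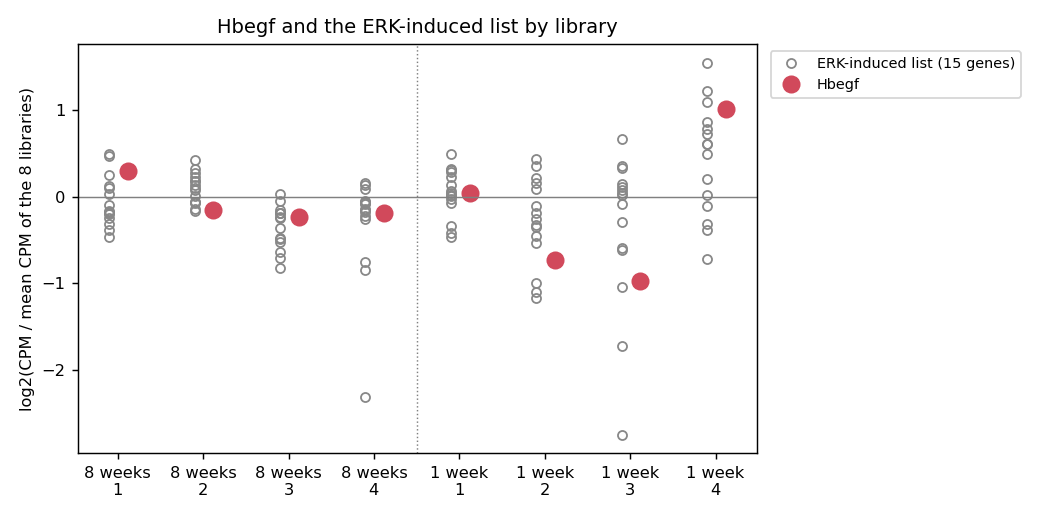
Log2 of CPM over the mean of the 8 libraries, for Hbegf (filled) and each of the 15 ERK-induced transcripts (open), by library, 8 weeks left and 1 week right. Hbegf and 9 of the 15 transcripts are highest in 1 week 4, and the libraries of 8 weeks spread less than those of 1 week for Hbegf.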

How the data were processed

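The authors deposited 1 table with raw counts per gene and library, a normalized signal per library, and their own log2 fold change, Wald score and raw and adjusted p-values. Per the submitters' processing notes the tools were TopHat2 2.1.1, HTSeq 0.6.0 and DESeq2 1.26.0, with cutadapt 2.10 and bcl2fastq 2.20.0.422, and the build was GRCm38. The notes give no roles. The annotation release and the strand setting are not given in the sources used here. Library names in the labels tied each column to its sample, with 0 per-sample columns left over.

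For the deposited counts the test was that of edgeR 4.0.16 in R 4.3.3 (filterByExpr with minimum count 10 and minimum total 15, TMM, quasi-likelihood F test, two-sided, no covariate). Called means a Benjamini-Hochberg adjusted p under 0.05, taken over all tested genes. Log2 fold changes are 8 weeks over 1 week, and their SE came from the F statistic. Lengths came from GENCODE M21, which holds 23320 of the 23355 genes (99.9%). On simulated counts of 14233 genes with 200 changed, the fit recovered 28.4% of 1.5-fold, 59.7% of 2-fold and 95.5% of 4-fold changes, with 5 false calls (3.9%). The changed genes were drawn only from genes above a minimum mean count, so the shares do not cover scarce genes. The simulated libraries held no shift with transcript length or GC content, so these shares need not hold for the real counts.

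Named were all members, each called gene and the 3 genes of smallest p of each list (in the ERK-induced list also genes chosen after their values were seen, Fos, Egr1 and Klf6), and the 3 genes most like each called receptor. The members and lists were chosen with earlier results of these data known. A marker result that is withheld is not reported here. Alternatives were DESeq2 1.42.0 (size factors and Wald test), library size alone, upper-quartile scaling, leaving the filter out, at least 5 CPM in 4 libraries, limma-voom with sample quality weights (limma 3.58.1; named limma-voom elsewhere), leaving out each library, 2 replicate blocks, an offset by splines of transcript length and GC content (4 degrees of freedom each), and leaving out 1 week 1 and 1 week 4 together.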

Additional observations from a re-analysis of the deposited data

Results flagged for a closer look

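Hbegf stood at 17.98 CPM in 8 weeks 1, apart from the other libraries of 8 weeks, which lay between 12.5 and 13.2 CPM. The gap to the nearest of them was 0.861 of the range of the group, above Dixon's 95% critical value for 4 samples. This was 1 of 16 groups of a member at an age that were examined, and chance marks about 1 in 20 such groups. Without 8 weeks 1 the log2 fold change of Hbegf was -0.24 (adjusted p = 0.756).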

How the results depend on the processing

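Against the 952 genes called with all libraries, the count was 592 with no filter, 1992 with the DESeq2 Wald test, 1632 with limma-voom with quality weights, 403 with the length and GC offset and 60 without 1 week 1 and 1 week 4. With each library left out it ran from 91 (without 8 weeks 3) to 1891 (without 8 weeks 2). Against the 2 members called, it was 1 with no filter, 1 with the length and GC offset, 0 without 1 week 1 and 1 week 4, and 0 to 2 with each library left out. Against the 3 pathway genes called, it was 1 with no filter, 7 with the DESeq2 Wald test, 6 with limma-voom, 0 with the length and GC offset, 0 without 1 week 1 and 1 week 4, and 0 to 6 with each library left out. Egfr and Erbb2 were positive in all 19 alternatives. The sign of Hbegf turned, to 0.02 with library size alone, 0.21 with limma-voom with quality weights, 0.44 without 1 week 4, 0.083 with the replicate block of the title numbers and 0.79 without 1 week 1 and 1 week 4, and the cause was not tested. With each library left out it ran from -0.328 to 0.436. Per kilobase of the longest transcript in place of merged exons, the levels at 8 weeks were 20.7 CPM for Egfr, 4.90 for Hbegf and 2.91 for Tgfa.

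No pairing by the replicate numbers of the titles was seen in the values. Same-numbered libraries had correlations of -0.339, -0.14, -0.089 and -0.121 in their deviations, and 0 of 8 libraries correlated best with their own number. With so few libraries per age these values cannot tell whether samples were prepared in pairs. With a replicate block of the title numbers 161 genes, 0 members and 0 pathway genes were called. A replicate block of the numbers in the library names gave 92 genes, 0 members and 0 pathway genes. The depth limits Areg, Epgn, Nrg3 and Nrg4, which fell below the filter on low counts.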
